A study of Mus musculus with 16 samples.

Results

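Hearts of aged Hap-I mice, which bear the human gene of the type 1 receptor for angiotensin II in its haplotype I, were compared with hearts of adult C57 mice across the whole transcriptome. The comparison takes 4 libraries of aged Hap-I mice that received no western diet and 3 libraries of adult C57 mice, 7 of the 16 libraries of the series, and tests the 11415 of 30153 genes with at least 1 TPM (transcripts scaled to a fixed total per library) in at least 3 of the 16 libraries. Both groups are given as strain C57/BL6, the tissue of every sample is heart, and the labels state no treatment for either. The other 2 groups, 5 aged and 4 adult Hap-I mice, were fed a western diet, which the design text leaves out for the adult group. They entered the model so that all 16 libraries estimate the spread of a gene. The filter, the scaling of the libraries and the adjustments for length and atrial RNA below also draw on all 16. The transgene and age differ together between aged Hap-I and C57, so their parts cannot be told apart. The design text describes separate animals. The labels name neither the promoter that drives the transgene nor the number of founder lines, and no age in months, sex, batch, or hour of collection. The human transgene was not analysed here.

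The type 1 receptor is the main receptor through which angiotensin II, the effector of the renin-angiotensin system, constricts vessels and acts on the heart. It couples to Gq proteins, which release calcium and activate protein kinase C, and it recruits beta-arrestins. In cardiomyocytes the pathway is known for hypertrophic growth and for altered calcium handling, electrical conduction and fuel use, and in fibroblasts for matrix production. With age, the heart is known to change in mitochondrial function, protein quality control and inflammatory tone.

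Size factors were 0.953 to 1.06 in C57 and 1.04 to 1.23 in aged Hap-I hearts. The 7 libraries correlated with each other at r = 0.966 to 0.99 over genes, and no 2 were identical. Transcripts of the mitochondrial genome made up 29.3% to 38.3% of TPM in C57 and 32.8% to 34.6% in aged Hap-I hearts, and Y-linked transcripts were present in all 7. Values below are scaled TPM, that is, TPM divided by the size factor. Tnnt2, the troponin T of cardiomyocytes, stood at 6475 to 8451 in the 7 libraries, and the defining markers of cardiomyocytes were thus present throughout. Myl7, the atrial regulatory myosin light chain, was at 1843, 26.8 and 885 in C57 replicates 1, 2 and 3 and at 166, 1.06, 1140 and 2.46 in aged Hap-I replicates 1 to 4, so atrial RNA varied within both groups and was high in C57 replicates 1 and 3 and aged Hap-I replicate 3. Transcripts of airway lining cells were present in C57 samples. Scgb1a1, the main secretory protein of club cells, was at 24.1, 1.48 and 3.02 in C57 and at 0.108 or less in aged Hap-I hearts, while Sftpc, of alveolar cells, was at 0 in all 7. Outside this comparison, Scgb1a1 was at 4.52 in adult Hap-I replicate 4 on the western diet, so it was not confined to C57. In bulk tissue, fewer cells of a type and less RNA per cell cannot be told apart.

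In aged Hap-I hearts 1283 genes were called, at a Benjamini-Hochberg adjusted p under 0.05 in limma, which is 11.2% of those tested. Of these 820 were higher (7.18%) and 463 lower (4.06%), and 109 differed by 2-fold or more, 77 higher and 32 lower. The 2 groups did not overlap at 3894 genes (34.1%), and 1255 of the called genes were among these. A called gene thus nearly always showed no overlap, and a lack of overlap stated below adds nothing to a call. Counts of called members in the lists below are read against the shares of 7.18% and 4.06%. Without scaling of the libraries, 225 genes were called, 204 higher and 21 lower, so that 90.7% were higher against 63.9% in the scaled data. Over all genes tested, the median log2 fold change moved from -0.01 to 0.13 with that setting, and fold changes are therefore reported relative to the scaled median. The count fell to 392 without C57 replicate 1, to 380 without C57 replicate 3, and to 825, 674 and 558 without aged Hap-I replicates 1, 3 and 4, while it was 1141 without C57 replicate 2 and 1183 without aged Hap-I replicate 2. Without C57 replicates 1 and 3 and aged Hap-I replicate 3, the 3 with the most atrial RNA, 1 C57 heart was left, assumed to vary like the other groups, and 3 genes were called, all higher: Spin1, Gm9762 and Gm16867 (log2 fold changes 1.04, 3.17 and 1.71). Gm16867 passed the filter only through the aged Hap-I hearts, where it is high. A set of 150 called genes joins those of the naming rules and some chosen after their values were seen. Of these 150, 51 stayed called whichever of the 7 libraries was left out, and 105 lost their call without scaling.

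**Figure D1:**
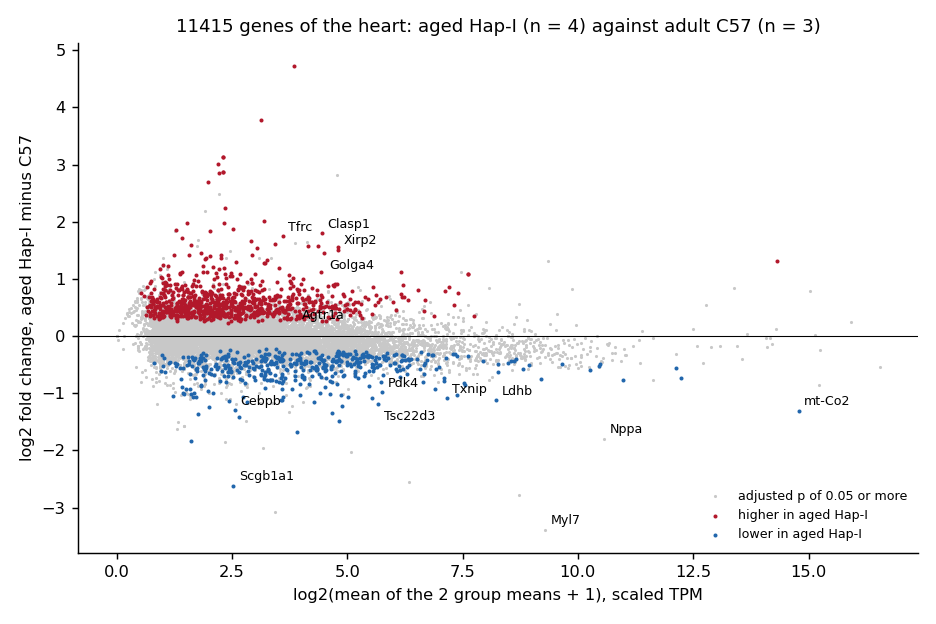
Log2 fold change of each of the 11415 genes tested, aged Hap-I (n = 4) minus adult C57 (n = 3), against log2 of the mean scaled TPM of the 2 groups plus 1. Red points are the 820 genes called higher and blue points the 463 called lower. Myl7 and Nppa lie far below 0 but are grey, not called, with a wide spread within the groups.

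Fold changes depended on transcript length. The length of a gene is here the median over all its annotated transcripts, which can differ from that of the transcripts expressed. Across genes, which are not independent replicates, the rank correlation of the log2 fold change with transcript length was 0.25. The median transcript of the genes called higher was 2090 bases long and that of the genes called lower 976 bases, against 1312 bases for all genes tested. Each library's own deviation from the gene means correlated with length at -0.16, -0.08 and -0.19 in C57 and at 0.11, 0.02, 0.28 and 0.26 in aged Hap-I hearts, so the groups did not overlap in this measure. After a correction of each library for length, 699 genes were called higher (6.16% of 11343) and 472 lower (4.16%), and 992 genes were called in both fits, all in the same direction. With the level of atrial markers as a covariate 730 genes were called, 478 higher and 252 lower. Counts after these adjustments are given beside several groups of genes below. What part length or atrial tissue had in any of the remaining differences was not tested.

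**Figure D2:**
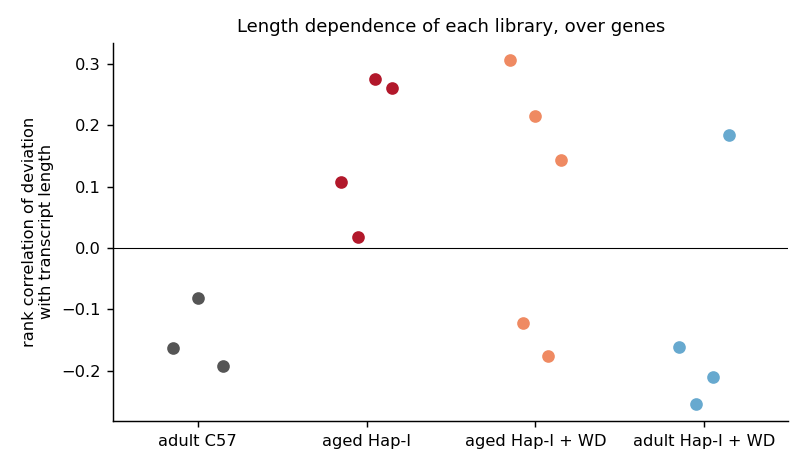
Rank correlation, over genes, between transcript length and how far a library lies from the gene mean, by group, 1 point per library. The 3 C57 libraries lie between -0.19 and -0.08 and the 4 aged Hap-I libraries without western diet between 0.02 and 0.28.

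Xirp2, Arhgap5, Clasp1 and Golga4 were among the genes with the largest increases. Xirp2, an actin-binding protein of the intercalated disc and a known angiotensin-responsive gene of cardiomyocytes, had 11.8, 17.1 and 11.9 scaled TPM in C57 and 38.2, 33.4, 44.2 and 45.6 in aged Hap-I hearts. Every aged Hap-I heart lay above every C57 heart (log2 fold change 1.51 ± 0.22, adjusted p = 0.00173). Arhgap5, a GTPase-activating protein, was at 0.373, 1.48 and 0.467 against 4.59, 3.29, 7.23 and 6.17 (log2 fold change 1.84 ± 0.25, adjusted p = 0.00115). Clasp1, which stabilises microtubule plus ends, was at 7.2, 12 and 7.17 against 30.1, 23.7, 43.4 and 35.4 (log2 fold change 1.80 ± 0.32, adjusted p = 0.00443). Golga4, a tethering protein of the trans-Golgi network, was at 9.54, 13.3 and 10.3 against 29.9, 27.8, 34.4 and 36 (log2 fold change 1.46 ± 0.21, adjusted p = 0.00128). The naming rule takes only genes without overlap, which is thus no result. These 4 genes stayed called whichever library was left out, with adjusted p of at most 0.0135, 0.0104, 0.0286 and 0.0122. Xirp2 lies on chromosome 2 at 67446002 to 67526614 and Clasp1 on chromosome 1 at 118389058 to 118612678 in GRCm38.

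Tfrc, the transferrin receptor through which cells take up iron, was at 4.21, 5.31 and 4.28 in C57 and at 15.6, 19.2, 17 and 19.4 in aged Hap-I hearts (log2 fold change 1.75 ± 0.39, adjusted p = 0.0126). Each aged value lay more than 10 scaled TPM above every C57 value. Clip4, a microtubule-binding protein, rose by 1.62, Tusc3, a subunit linked to the oligosaccharyltransferase and to magnesium transport, by 1.97, and Cpxm2, a secreted carboxypeptidase-like protein, by 1.57 on the log2 scale (adjusted p = 0.0132, 0.0244 and 0.0175). These 4 genes lost their call when 1 library was left out, with an adjusted p of up to 0.0552 for Tfrc, 0.066 for Clip4, 0.107 for Tusc3 (each without C57 replicate 3) and 0.0805 for Cpxm2 (without C57 replicate 1). Ighg2c, the constant region of an immunoglobulin heavy chain made by plasma cells, was at 2.9, 1.43 and 3.9 against 11, 10.1, 10.6 and 9.76 (log2 fold change 1.66 ± 0.27, adjusted p = 0.00286, at most 0.0139 without any 1 library). Pgk1-rs7 (annotated as a processed pseudogene), Plac9a and Entpd4 were also among the 12 largest increases that the naming rule took (2.24, 1.88 and 1.56), but 100%, 99.7% and 100% of their 31-base words occur in other genes and their levels are uncertain.

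Among the decreases, Tsc22d3, a glucocorticoid-induced leucine zipper protein that restrains inflammation, was at 62.6, 62.7 and 85.2 in C57 and at 26.3, 32.6, 28.8 and 33.1 in aged Hap-I hearts. Its log2 fold change was -1.18 ± 0.23 (adjusted p = 0.00632), and the naming rule here too takes only genes without overlap. Cebpb, a transcription factor of the acute-phase response, was at 7.39, 6.85 and 7.93 against 2.36, 2.84, 2.16 and 2.35 (log2 fold change -1.29 ± 0.22, adjusted p = 0.00379), and 19.6% of its words occur in other genes. Timp4, the metalloproteinase inhibitor most typical of the heart, was at 7.73, 10.7 and 7.79 against 2.96, 3.57, 2.59 and 4.45 (log2 fold change -1.15 ± 0.24, adjusted p = 0.0101). Banp, a nuclear DNA-binding protein, was at 7.97, 5.11 and 6.34 against 2.05, 2, 2.64 and 2.89 (log2 fold change -1.13 ± 0.19, adjusted p = 0.00379). All 4 stayed called without any 1 library, at adjusted p of at most 0.0406, 0.0247, 0.0335 and 0.0245. Without scaling Cebpb alone passed (adjusted p = 0.0205), while Tsc22d3, Timp4 and Banp did not (0.0985, 0.0722 and 0.0606).

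Gbp2, an interferon-induced GTPase, was at 14.3, 12.4 and 19.2 scaled TPM in C57 and at 5.58, 5.67, 7.22 and 7.16 in aged Hap-I hearts, and Clec2d, a ligand of a natural killer cell receptor, at 26.5, 20.3 and 31.3 against 11.4, 11.1, 11.6 and 10. They fell by 1.13 and 1.15 on the log2 scale (adjusted p = 0.0133 and 0.0305). Without C57 replicate 3 neither passed (adjusted p = 0.0728 and 0.133). Tgtp1 and Mt2, a GTPase induced by interferon and a metallothionein, were at -1.42 and -1.34 (adjusted p = 0.0384 and 0.0468; 0.156 and 0.213 without C57 replicate 3), and share 84.4% and 58.1% of their words with other genes. Dynlt1b and the mitochondrially encoded mt-Co2 were at -1.48 and -1.31 and share 86.9% and 100% of theirs, so these too are uncertain. The largest decrease among the called genes named was that of Scgb1a1 (log2 fold change -2.62 ± 0.65, adjusted p = 0.0201), the airway gene described above, whose C57 mean of 9.53 ± 12.6 rests mainly on replicate 1. Of 10 airway and lung epithelial markers, a list chosen after the values were seen, 3 were kept by the filter and 2 fell. The second, Bpifa1, was at 10.2, 0.78 and 1.42 in C57 and at 0, 0, 0 and 0.0949 in aged Hap-I hearts.

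**Figure D3:**
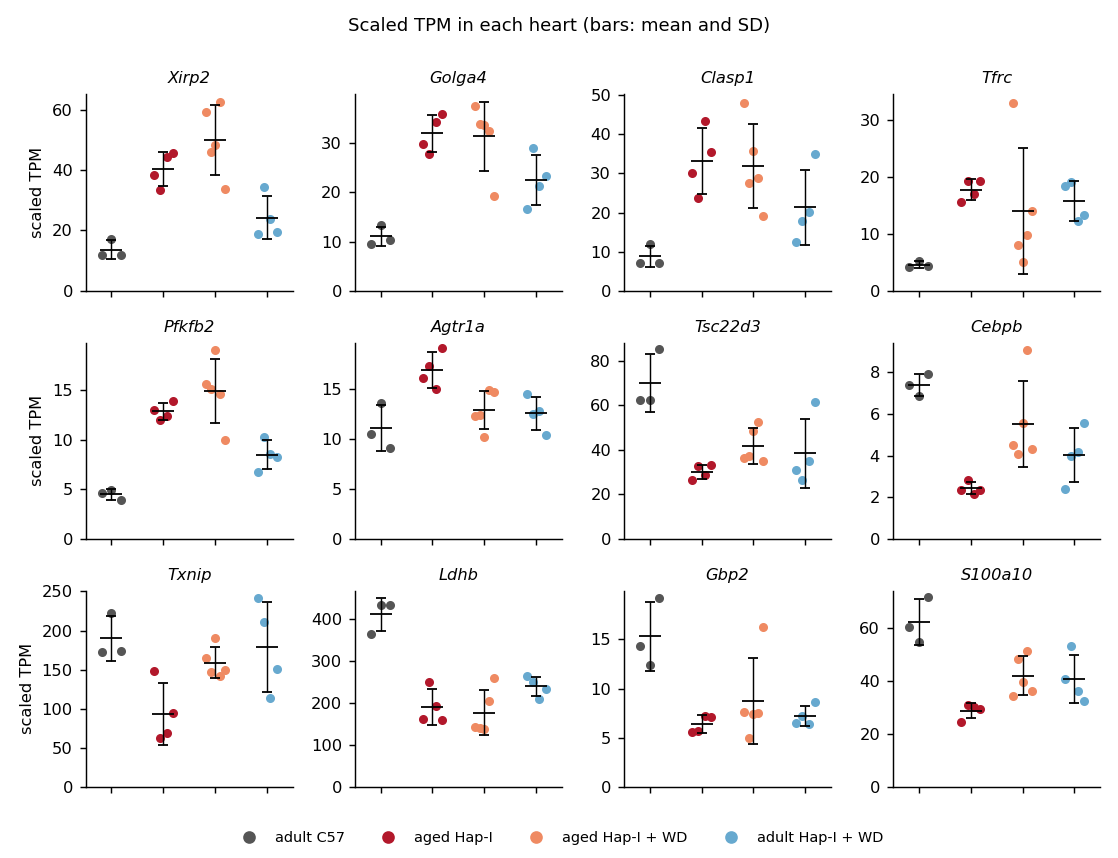
Scaled TPM of 12 genes in each of the 16 hearts, 1 point per heart, with bars for the mean and SD of each group; orange and light blue mark aged and adult Hap-I hearts on the western diet (WD). Aged Hap-I hearts without western diet (dark red) lie above all C57 hearts (grey) for Xirp2, Golga4, Clasp1, Tfrc, Pfkfb2 and Agtr1a and below them for Tsc22d3, Cebpb, Txnip, Ldhb, Gbp2 and S100a10.

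The level listed for the mouse's own receptor gene Agtr1a was higher in the aged Hap-I hearts. Whether reads of the human transgene could be assigned to it is not given in the sources used here, and their part was not tested. Agtr1a was at 10.5, 13.7 and 9.13 in C57 and at 16.1, 17.3, 15 and 19.1 in aged Hap-I hearts, with no overlap (log2 fold change 0.58 ± 0.15, adjusted p = 0.0214). It lies on chromosome 13 at 30336441 to 30382867. The difference was 0.73 after the length correction (adjusted p = 0.00777) and did not pass with the atrial covariate (0.0597) or without C57 replicate 3 (0.118). Mme, neprilysin, which degrades angiotensin and natriuretic peptides, rose by 0.58 (adjusted p = 0.0357, and 0.188 without C57 replicate 3). Agt, the precursor angiotensinogen, was at 1.05, 0.717 and 1.35 against 0.887, 0.754, 0.712 and 0.684, and Ace, the converting enzyme, at 12.3, 10.8 and 15.1 against 12.3, 11.7, 12.1 and 11, overlapping in both cases (log2 values -0.20 and -0.09, adjusted p = 0.408 and 0.896). The value of Ace turned positive without scaling (0.06) and with the atrial covariate (0.02). Of 10 renin-angiotensin genes kept, 2 rose and 0 fell, with a median log2 fold change of 0.05. Neither remained called with the atrial covariate or without C57 replicate 1, C57 replicate 3 or aged Hap-I replicate 4.

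Downstream of the receptor, 4 of 23 relay genes rose and 1 fell, with a median of 0.18 beside -0.01 for all genes tested. Prkca, the classical protein kinase C of cardiomyocytes, was at 4.82, 4.2 and 4.71 in C57 and at 6.88, 6.88, 6.71 and 6.4 in aged Hap-I hearts (log2 fold change 0.47 ± 0.09, adjusted p = 0.00787). The adjusted p of Prkca was at most 0.0302 without any 1 library and 0.131 without scaling. Its relative Prkce, the transcription factor Mef2d and the G protein subunit Gna13 rose by 0.36, 0.33 and 0.29 (adjusted p = 0.0247, 0.0357 and 0.0412). Rgs2, which switches Gq off, fell by 0.75 (adjusted p = 0.0484). Without C57 replicate 1, or with the atrial covariate, 1 of these 5 was called, and after the length correction 3 rose and 0 fell. Another protein kinase C, Prkcq, is outside the list and was chosen after its values were seen. It was at 1.31, 1.68 and 1.33 against 3.56, 4.69, 3.92 and 5.13 (log2 fold change 1.12 ± 0.11, adjusted p = 0.000141, at most 0.0026 without any 1 library). Of 19 adrenergic and endothelin signalling genes, 2 rose and 0 fell: Pde4d, a phosphodiesterase that breaks down cyclic AMP, at 2.44, 3.3 and 1.95 against 5.8, 5.43, 8.29 and 7 (log2 fold change 1.10 ± 0.17, adjusted p = 0.00269), and the alpha-1A receptor Adra1a, at 0.64 (adjusted p = 0.0436, and 0.202 without C57 replicate 3).

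Some genes of electrical conduction rose. Scn4b, a beta subunit of voltage-gated sodium channels, was at 5.91, 10 and 10.4 in C57 and at 19.2, 16.4, 13.7 and 15.6 in aged Hap-I hearts, higher in all 4 (log2 fold change 0.84 ± 0.17, adjusted p = 0.00787). Gja1, the main ventricular connexin, and Hcn4, a pacemaker channel, rose by 0.63 and 0.44 (adjusted p = 0.0258 and 0.0263). Of 10 sodium channel, pacemaker and connexin genes 4 rose and 0 fell (median 0.26, and 0.18 with 3 called after the length correction), beside 7.18% and 4.06% of all genes tested, and 2 were called with the atrial covariate. Without C57 replicate 1 or 3, or aged Hap-I replicate 3 or 4, 2 were called. Of 17 potassium channels 2 rose: Kcnd3, of the transient outward current, by 0.60 and Kcnq1, of the slow delayed rectifier, by 0.49 (adjusted p = 0.00535 and 0.00855). Both stayed called without any 1 library, and neither did without scaling (adjusted p = 0.0563 and 0.143). Scn4b lies on chromosome 9 at 45138395 to 45154152.

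In calcium handling 2 of 22 genes rose and 0 fell, beside 7.18% and 4.06% of all genes tested. Both are subunits of calmodulin kinase II. Camk2d was at 20.6, 25.1 and 19 in C57 and at 33.9, 33.1, 39.7 and 40.4 in aged Hap-I hearts (log2 fold change 0.74 ± 0.15, adjusted p = 0.00858, at most 0.0499 without any 1 library), and Camk2b rose by 0.50 (adjusted p = 0.0176, and 0.0782 without C57 replicate 3). The calcium pump Atp2a2 and its inhibitor Pln had log2 values of 0.09 and -0.15, short of the threshold (adjusted p = 0.857 and 0.568). At the intercalated disc, where cardiomyocytes join, Dsp, the plaque protein desmoplakin, was at 61.3, 78.6 and 59.6 against 113, 104, 122 and 129 and Lmo7 at 56.8, 68.2 and 47.2 against 87.1, 81.6, 98.4 and 100.3. Both groups were free of overlap (log2 fold change 0.81 ± 0.18, adjusted p = 0.0112; log2 fold change 0.68 ± 0.16, adjusted p = 0.0156), and these 2 of 14 disc genes were called unless C57 replicate 1 or 3 was left out. Of 31 sarcomere genes 1 rose, Xirp2, and 1 fell: Tcap, the titin cap, was at 2751, 2159 and 2697 against 1436, 1771, 1258 and 1476 (log2 fold change -0.77 ± 0.15, adjusted p = 0.00738). Gata4, a cardiac transcription factor chosen after its values were seen, was at 30.6, 29.9 and 26.5 against 44, 40.8, 42.5 and 49.8 (log2 fold change 0.59 ± 0.10, adjusted p = 0.00331).

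The usual markers of hypertrophy and strain did not pass. Nppb, the B-type natriuretic peptide, was at 109, 48.2 and 217 in C57 and at 251, 221, 231 and 217 in aged Hap-I hearts, where C57 replicate 3 was level with the lowest aged heart and the other C57 hearts were lower (log2 value 1.12, adjusted p = 0.205). Myh7, the slow myosin heavy chain, was at 30.6, 24.2 and 37.7 against 40.2, 44.7, 54.9 and 50.2 (log2 value 0.62, adjusted p = 0.387) and shares 27.9% of its words. Nppa, the atrial natriuretic peptide, was at 3436, 181 and 2845 against 477, 94, 2894 and 112 (log2 value -1.80, adjusted p = 0.351) and shares 56.8% of its words. High and low values of Nppa fell on the same hearts as those of Myl7. Of 15 hypertrophy and stress genes, Xirp2 alone was called.

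Several genes of fat uptake and storage were lower. Gpihbp1, which holds lipoprotein lipase on the capillary wall, was at 84.3, 95.5 and 109 in C57 and at 61.7, 66.2, 52.3 and 59.5 in aged Hap-I hearts (log2 fold change -0.67 ± 0.13, adjusted p = 0.00632, at most 0.0425 without any 1 library). The fatty acid binding proteins Fabp4 and Fabp5 fell by 0.75 and 0.62, the hormone-sensitive lipase Lipe by 0.54, and the lipase inhibitor Angptl4 by 1.00 (adjusted p = 0.0309, 0.022, 0.0164 and 0.0459). The lipid droplet protein Plin4 fell by 0.46 (adjusted p = 0.0373). In all, 1 of 29 genes of this list rose and 6 fell, beside 7.18% and 4.06% of all genes tested, at a median of -0.08 (0.08 without scaling). The number lower was 1 without C57 replicate 1 and 2 without C57 replicate 2, C57 replicate 3 or aged Hap-I replicate 4, 5 after the length correction and 3 with the atrial covariate. White adipocyte markers, which include Fabp4, stood beside this at a median of -0.65 with 1 of 6 lower, and their part in the result was not tested.

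Some regulators of fuel choice rose and others fell. Pfkfb2, the enzyme that makes the activator of cardiac glycolysis, was at 4.64, 4.95 and 3.88 in C57 and at 13, 12, 12.4 and 13.9 in aged Hap-I hearts (log2 fold change 1.34 ± 0.16, adjusted p = 0.000651), with an adjusted p of at most 0.00556 without any 1 library and 18.9% of its words shared. Ldhb, the lactate dehydrogenase subunit typical of the heart, was at 364, 434 and 432 against 161, 250.4, 193 and 159.6 (log2 fold change -1.12 ± 0.21, adjusted p = 0.00584), with 33% of its words shared. Hk1 rose by 0.60 (adjusted p = 0.0334, and 0.106 without C57 replicate 3). In all 2 of 31 glycolysis genes rose and 1 fell, beside 7.18% and 4.06% of all genes tested. Around pyruvate dehydrogenase, Pdpr and Pdp1, of the phosphatase that activates it, rose by 1.28 and 0.51 (adjusted p = 0.0104 and 0.0272). Its kinase Pdk4, which inactivates it, was at 51.2, 115 and 51.5 against 40.9, 33.5, 32.1 and 29.2 (log2 fold change -0.98 ± 0.30, adjusted p = 0.0456). Mpc2, of the mitochondrial pyruvate carrier, fell by 0.57 (adjusted p = 0.0372). Pdk4 lost its call when any 1 of the 7 libraries was left out, up to 0.18 without C57 replicate 2, which held the value of 115. Without C57 replicate 1 or 3 none of these 4 was called.

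Among 41 genes of fatty acid oxidation 4 rose and 3 fell, beside 7.18% and 4.06% of all genes tested (median -0.10, and 0.07 with quantile normalization). Ppara, the nuclear receptor that drives this pathway, was at 2.04, 3.28 and 2.02 in C57 and at 6.19, 4.95, 8.86 and 10.4 in aged Hap-I hearts (log2 fold change 1.29 ± 0.35, adjusted p = 0.0263), above the C57 range in all 4. The coactivator Ppargc1b and the nuclear receptor Esrrg rose by 0.72 and 0.51, and Bdh1, a ketone body enzyme, by 0.89 (adjusted p = 0.0108, 0.0261 and 0.0371). Cpt2, of the carnitine shuttle, fell by 0.51 and Ucp2, an uncoupling protein homologue, by 1.07 (adjusted p = 0.0263 and 0.0327), and Pdk4 was the third. Ppargc1b alone of Ppargc1b, Ppara, Esrrg and Cpt2 passed without any 1 library (at most 0.0472), and without C57 replicate 1 the list held 1 called gene. Of 31 insulin and IGF signalling genes Irs1, Gsk3b and Tsc1 rose, by 0.80, 0.81 and 0.42 (adjusted p = 0.0456, 0.0226 and 0.0406), and none did so without C57 replicate 1 or 3 or aged Hap-I replicate 3 or 4.

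Nuclear genes of the respiratory chain had mostly negative values, and few were called. Of 37 complex I genes 0 rose and 2 fell (median -0.36), of 26 genes of complexes II, III and IV 0 rose and 2 fell (median -0.31), and of 16 ATP synthase genes 0 rose and 1 fell (median -0.32). Ndufa9, a complex I subunit, was at 160.3, 181 and 166 in C57 and at 115, 125, 97.1 and 74.1 in aged Hap-I hearts (log2 fold change -0.74 ± 0.15, adjusted p = 0.00973, at most 0.0382). Atp5b, the catalytic beta subunit of the synthase, was at 5304, 5265 and 5514 against 3630, 4275, 3211 and 3465 (log2 fold change -0.56 ± 0.12, adjusted p = 0.0116, and 0.0557 without C57 replicate 3). Cox5a and Cox5b, of cytochrome c oxidase, fell by 0.48 and 0.60 (adjusted p = 0.042 and 0.0343), and both calls were lost when any 1 library other than aged Hap-I replicate 2 was left out. Of 13 mitochondrially encoded transcripts mt-Co2 and mt-Nd3 were called, both lower, and both share nearly all their words with other genes (100% and 98.1%). Of 21 genes of the tricarboxylic acid cycle Dlst, of the oxoglutarate dehydrogenase complex, was at 0.79 and fumarase, Fh1, at -0.50 (adjusted p = 0.0327 and 0.0371), and neither was called without C57 replicate 1 or 3. The nuclear genes are short transcripts, and after the length correction the 3 medians were -0.24, -0.18 and -0.28, with the same numbers called. With quantile normalization they were -0.10, 0.01 and -0.05, so that of complexes II, III and IV changed sign. Cytosolic ribosomal protein genes, which are short as well, had a median of -0.27 (-0.18 after the correction and -0.05 with quantile normalization) and 0 of 51 called. The member of smallest p, Rps20, was at 228, 230.4 and 223 against 152, 173, 149 and 143 (adjusted p = 0.0855). Of 26 genes of mitochondrial dynamics and biogenesis 2 rose: Gabpa, a transcription factor for respiratory chain genes, at 6.25, 7.35 and 6.04 against 11.1, 9.73, 10.7 and 13 (log2 fold change 0.68 ± 0.12, adjusted p = 0.00443), and the fission GTPase Dnm1l, by 0.52 (adjusted p = 0.0182, and 0.102 without C57 replicate 3).

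**Figure D4:**
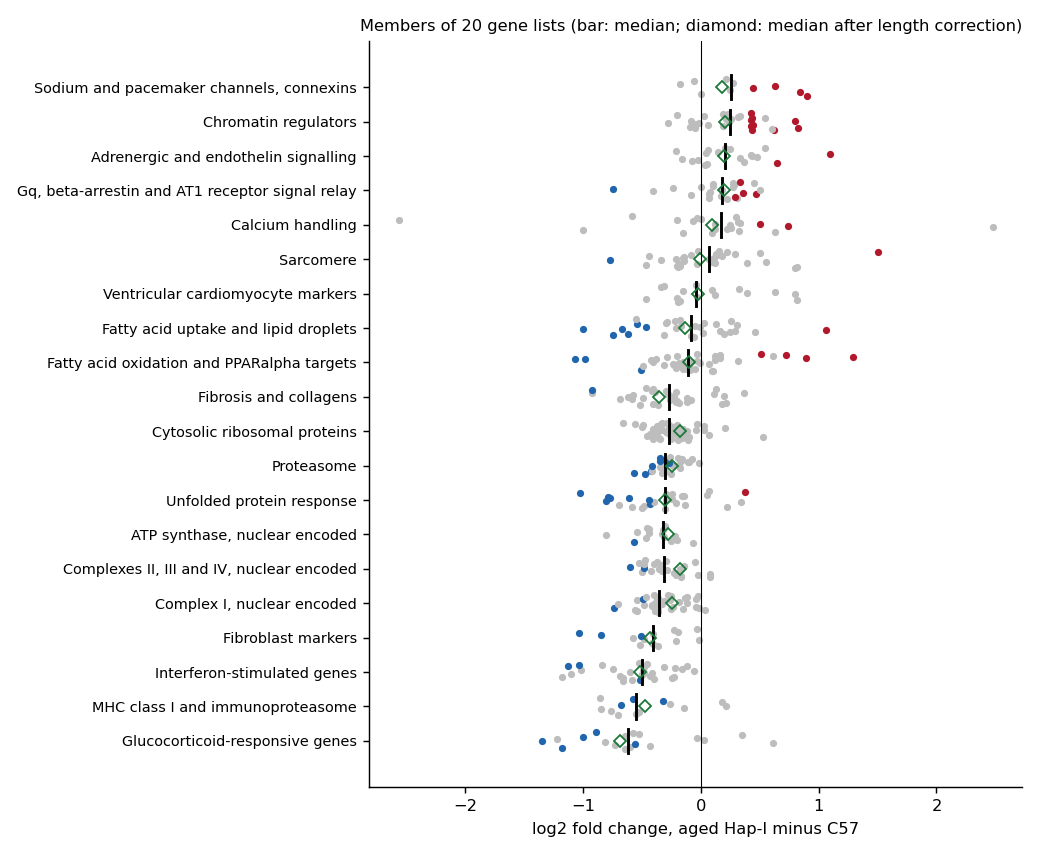
Log2 fold change, aged Hap-I minus adult C57, of the members of 20 gene lists, 1 point per gene. Red points were called higher, blue points called lower and grey points not called, black bars are list medians, and green diamonds are medians after the length correction. The lowest medians are those of the glucocorticoid-responsive genes, at -0.62, and of MHC class I and the immunoproteasome, at -0.55.

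Some genes of protein quality control fell. The unfolded protein response raises chaperones when unfolded proteins collect in the endoplasmic reticulum, through the sensors IRE1, PERK and ATF6. Of 26 of its genes 7 fell and 1 rose, beside 4.06% and 7.18% of all genes tested, at a median of -0.30 (-0.31 and the same numbers after the length correction; 4 lower and 0 higher with the atrial covariate). Creld2, a chaperone-like secreted protein, was at 14.3, 11.5 and 17.6 in C57 and at 7.99, 7.32, 7.29 and 8.87 in aged Hap-I hearts (log2 fold change -0.79 ± 0.14, adjusted p = 0.00525). The adjusted p of Creld2 was at most 0.0315 without any 1 library and 0.1835 without scaling. Herpud1, of the degradation machinery of the reticulum, was at 117, 149 and 116 against 71.4, 76.2, 67.8 and 72.6 (log2 fold change -0.80 ± 0.21, adjusted p = 0.0243, and 0.0798 without C57 replicate 2). Dnajb11, a cochaperone, fell by 0.44, Chac1, a glutathione-degrading enzyme, by 1.02, the transcription factor Xbp1 by 0.43, and Manf and Sdf2l1, proteins of the reticulum lumen, by 0.61 and 0.77 (adjusted p = 0.0157, 0.024, 0.0337, 0.0385 and 0.0386). Ern1, which encodes IRE1, rose by 0.38 (adjusted p = 0.0407). The chaperone Hspa5 was at 308 ± 20.6 in C57 and 250.5 ± 33.1 in aged Hap-I hearts and did not pass (log2 value -0.30, adjusted p = 0.556). The number lower was 6 without C57 replicate 2, 4 without aged Hap-I replicate 2, 3 without aged Hap-I replicate 1 or 4, 2 without C57 replicate 1 or aged Hap-I replicate 3, and 1 without C57 replicate 3.

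The endoplasmic reticulum stress element, the motif through which ATF6 is known to act, is CCAAT and CCACG with any 9 bases between them. It was searched on both strands of the RefSeq promoters (GRCm38.p6, 250 bases before to 50 after each start), which held a promoter for 23 of the 26 genes. It occurred in 39 of all 32851 promoters (0.119%) and in 7 of the 23 (30.4%), while CCAAT alone, which the element contains, occurred in 37.4% of all promoters and in 82.6% of the 23. Of the 6 genes called lower that had a promoter there, Creld2 held it, and of the other 17 genes 6 held it, among them Hspa5. The promoters of these 2 genes are shown as the pair that shares the element and differs in the test, with its CCAAT and CCACG, or their reverse complement where it lies on the other strand, in capitals. They lie at chr15:88819396-88819695 (Creld2, plus strand) and chr2:34771840-34772139 (Hspa5, plus strand), and the element starts 126 and 65 bases before the annotated start.
Creld2: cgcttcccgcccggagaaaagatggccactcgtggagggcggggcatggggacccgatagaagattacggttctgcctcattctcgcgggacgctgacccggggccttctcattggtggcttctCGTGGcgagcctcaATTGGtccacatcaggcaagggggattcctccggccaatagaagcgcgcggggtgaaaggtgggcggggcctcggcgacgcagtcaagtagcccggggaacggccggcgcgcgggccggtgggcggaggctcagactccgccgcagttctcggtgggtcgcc
Hspa5: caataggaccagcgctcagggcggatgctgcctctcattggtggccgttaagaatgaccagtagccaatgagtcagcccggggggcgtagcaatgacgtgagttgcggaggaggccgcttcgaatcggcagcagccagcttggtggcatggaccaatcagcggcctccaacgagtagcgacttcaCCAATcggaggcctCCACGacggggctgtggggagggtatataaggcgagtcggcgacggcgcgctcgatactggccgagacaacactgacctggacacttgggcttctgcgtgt
A match describes letters in this window and not binding.

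Of 31 proteasome genes 0 rose and 8 fell (median -0.30), beside 7.18% and 4.06% of all genes tested. After the length correction 5 fell (median -0.24), and 5 with the atrial covariate. Psma3, a subunit of the catalytic core, was at 80.4, 84.5 and 70.3 in C57 and at 54, 57, 45.8 and 53.1 in aged Hap-I hearts (log2 fold change -0.57 ± 0.12, adjusted p = 0.00996), below the C57 range in all 4, with 20.3% of its words shared. Psma2 fell by 0.47, and Psmc2 and Psmd7, of the regulatory cap, by 0.41 and 0.30 (adjusted p = 0.0184, 0.0214 and 0.023). The number lower was 1 without C57 replicate 1 and 2 without C57 replicate 3 or aged Hap-I replicate 3 or 4. Of 24 heat shock genes 2 fell: Hspb1, a small heat shock protein, was at 263, 152 and 319 against 129, 133, 116 and 136 (log2 fold change -0.86 ± 0.19, adjusted p = 0.0113, with 55.4% of its words shared), and the cochaperone Chordc1 fell by 0.55 (adjusted p = 0.0112). Sqstm1, the autophagy receptor p62, was at 204, 248 and 254 against 131, 159, 117 and 126 (log2 fold change -0.82 ± 0.18, adjusted p = 0.0125), and with the rise of the ubiquitin ligase gene Fbxo30 (0.56, adjusted p = 0.0459) it made the 2 of 31 autophagy and atrophy genes called. Hspb1, Chordc1 and Sqstm1 did not pass without C57 replicate 3 (adjusted p = 0.066, 0.0532 and 0.0632), nor did Fbxo30 (0.165 without C57 replicate 3).

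The list of oxidant production and antioxidant defence, which mixes both kinds of gene, included 6 of 34 that fell and 0 that rose (median -0.21). This stands beside 4.06% and 7.18% of all genes tested, with 7 lower after the length correction and 3 with the atrial covariate. Txnip, which binds and inhibits thioredoxin and limits glucose uptake, was at 173, 223 and 174 in C57 and at 149, 62.3, 69 and 94.9 in aged Hap-I hearts, where replicate 1 was closest to the C57 range (log2 fold change -1.09 ± 0.27, adjusted p = 0.0207). Thioredoxin itself, Txn1, fell by 0.51, peroxiredoxin Prdx2 by 0.43, superoxide dismutase Sod1 by 0.44, heme oxygenase Hmox1 by 0.56 and the glutathione transferase Gstm1 by 0.36 (adjusted p = 0.0486, 0.0246, 0.0445, 0.0238 and 0.0207), where Gstm1 shares 28.8% of its words. None was called without C57 replicate 3, and 1 without C57 replicate 1 or aged Hap-I replicate 3. In iron handling 3 of 20 genes rose and 3 fell. Beside Tfrc, the iron importer Slc11a2 and Alas1, the first enzyme of heme synthesis, rose by 0.36 and 0.62 (adjusted p = 0.0482 and 0.0227), while the ferritin chains Fth1 and Ftl1 fell by 0.52 and 0.63 (adjusted p = 0.0448 and 0.0309, where Ftl1 shares 64.1% of its words), as did Hmox1. Without C57 replicate 3 none of the 6 was called.

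Interferon-stimulated genes had few called members. All 31 had negative values, 3 fell and 0 rose, and the median was -0.50 (-0.52 after the length correction, -0.47 with the atrial covariate). Irf1, an interferon regulator, was at 15.5, 14.5 and 15.9 in C57 and at 10.7, 10.7, 10 and 10.1 in aged Hap-I hearts (log2 fold change -0.52 ± 0.12, adjusted p = 0.0163). Igtp, an interferon-induced GTPase, was at 18.1, 14.2 and 28.7 against 7.53, 8.85, 9.35 and 10.6 (log2 fold change -1.04 ± 0.29, adjusted p = 0.0337), and Gbp2 is described above. Of 13 genes of MHC class I and the immunoproteasome, which cuts peptides for display, 3 fell and 0 rose (median -0.55): Psme2, Psmb8 and Psme1, by 0.57, 0.68 and 0.32 (adjusted p = 0.0164, 0.035 and 0.0486). C57 replicate 3 held the highest values of Gbp2 and Igtp, and without it none of these 6 genes was called and the 2 medians were -0.30 and -0.33. Of 5 MHC class II genes none was called, and Cd74, the member of smallest p, was at 109, 82.9 and 179.6 against 75.4, 80.2, 89.4 and 86.2 (adjusted p = 0.115). Macrophage and leukocyte markers stood beside these lists at a median of -0.19, with 1 of 18 lower, the Fc receptor Fcgr3, by 0.77 (adjusted p = 0.0128). Their summed level was 182 to 289 in C57 and 172 to 194 in aged Hap-I hearts, and their part in the result was not tested.

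Glucocorticoid-responsive genes had 5 of 18 members lower and 0 higher, at a median of -0.62 (-0.69 after the length correction, with 3 lower), beside 4.06% and 7.18% of all genes tested. With the atrial covariate 3 were lower, and 2 without C57 replicate 1 or 3 or aged Hap-I replicate 3 or 4. Beside Tsc22d3 and Mt2, the transcription factor Klf9 was at 24, 29.4 and 23.6 in C57 and at 16.6, 18.3, 15.9 and 17.4 in aged Hap-I hearts (log2 fold change -0.56 ± 0.15, adjusted p = 0.0247), and Sult1a1, a sulfotransferase, at 26.2, 36.2 and 24 against 15.1, 15.9, 12.4 and 16.2 (log2 fold change -0.89 ± 0.19, adjusted p = 0.0112). Angptl4, also of this list, is described above and did not pass when any of 6 libraries was left out (up to 0.143 without C57 replicate 2). Sult1a1 and Tsc22d3 kept their calls without any 1 library, and Klf9 did not (up to 0.0856 without C57 replicate 2). In NF-kB signalling and inflammation 2 of 20 genes fell and 0 rose. Nfkbia, the inhibitor that NF-kB itself induces, was at 15.6, 16.1 and 20.2 against 7.99, 9.99, 6.93 and 9.53 (log2 fold change -0.93 ± 0.17, adjusted p = 0.00584), and Cebpb was the other. Both kept their calls without any 1 library, while without scaling Cebpb did (adjusted p = 0.0205) and Nfkbia did not (0.0546). Of 20 immediate early genes only Klf2, a flow-responsive factor, was called, at -0.71 (adjusted p = 0.0375, and 0.195 without C57 replicate 3), and of 18 complement genes only the regulator Cd59a, at -0.48 (adjusted p = 0.0182, and 0.0688 without C57 replicate 1).

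Of the circadian clock genes, 2 activators rose and 3 repressors or outputs fell. In the circadian clock, CLOCK and BMAL1 (encoded by Arntl) activate the genes of their own repressors and of output factors through E-boxes, so the levels of both arms change with the hour. Of 6 activator genes Clock and Arntl were called. Clock was at 0.603, 1.1 and 0.265 in C57 and at 2.47, 1.57, 3.03 and 3.07 in aged Hap-I hearts (log2 fold change 1.10 ± 0.22, adjusted p = 0.00717), and Arntl at 0.404, 0.675 and 0.181 against 1.53, 0.917, 1.59 and 0.919 (log2 fold change 0.66 ± 0.19, adjusted p = 0.0411). Of 14 repressors and outputs 3 fell and 0 rose (median -0.33): the repressor Per2 was at 2.04, 1.9 and 2.31 against 0.851, 1.06, 1.11 and 1.41, Ciart at 9.07, 10.8 and 11.1 against 3.46, 8.83, 5.85 and 5.84 and the output factor Hlf at 8.77, 8.78 and 5.84 against 4.7, 4.82, 4.52 and 4.58 (adjusted p = 0.0363, 0.0321 and 0.018). None of the 5 overlapped between groups, as 34.1% of all genes tested did not. After the length correction Clock, Per2 and Hlf stayed called, while Arntl and Ciart did not. Without scaling Clock alone of the 5 stayed called. Clock kept its call without any 1 library (at most 0.046), while Arntl, Per2, Ciart and Hlf did not (up to 0.177, 0.14, 0.122 and 0.0872), and without C57 replicate 1 none of the 3 was called lower. The labels give no hour of collection, so the hour and the groups cannot be told apart.

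The E-box CACGTG, which reads the same on both strands, occurred in 7.15% of all RefSeq promoters of the same window. By gene, it occurred in 11.9% of the tested genes that had a promoter there and in 5 of 12 clock repressors and outputs (41.7%), among them 1 of the 2 called lower that had one. That of Ciart is shown because it holds 3 E-boxes, in capitals, at chr3:95882179-95882478 on the minus strand.
Ciart: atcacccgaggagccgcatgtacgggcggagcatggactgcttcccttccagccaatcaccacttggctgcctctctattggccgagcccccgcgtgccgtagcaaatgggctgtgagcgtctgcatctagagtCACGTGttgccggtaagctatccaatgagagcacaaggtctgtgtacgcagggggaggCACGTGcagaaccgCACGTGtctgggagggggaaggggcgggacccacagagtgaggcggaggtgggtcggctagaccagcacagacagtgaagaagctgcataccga
The first of the 3 starts 116 bases before the annotated start.

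Histone and DNA modifying enzymes were among the genes that rose. Of 28 chromatin regulators 9 rose and 0 fell (median 0.25), beside 7.18% and 4.06%. Kmt2a, a histone H3 lysine 4 methyltransferase, was at 1.14, 1.17 and 1.07 in C57 and at 2.24, 2.01, 2.5 and 2.36 in aged Hap-I hearts, without overlap (log2 fold change 0.62 ± 0.11, adjusted p = 0.0038). Setd2, the lysine 36 trimethylase, was at 0.714, 1.46 and 0.664 against 2.14, 2.12, 2.96 and 2.39 (log2 fold change 0.82 ± 0.14, adjusted p = 0.00379). Hdac9, a class IIa deacetylase, rose by 0.80 and Tet3, a methylcytosine oxidase, by 0.43 (adjusted p = 0.0104 and 0.0137, and 0.0635 and 0.0637 without C57 replicate 3 and C57 replicate 1), and Kmt2c, Kdm5a, Kdm6b, Ep300 and Chd7 were the others. The median transcript of the list is 1622.75 bases long. After the length correction 6 rose and 1 fell, at a median of 0.20. With the atrial covariate 5 rose, and 3 rose without C57 replicate 1 or 3.

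Of 32 splicing genes 4 rose and 1 fell (median -0.08, and 0.08 without scaling), and 0 rose without C57 replicate 3. Rbm20, the cardiac splicing regulator of titin, was at 28.1, 29.2 and 24.4 in C57 and at 38, 37, 42 and 46 in aged Hap-I hearts (log2 fold change 0.56 ± 0.12, adjusted p = 0.0112, and 0.0646 without C57 replicate 3). Srsf5 and Rbfox2 rose by 0.85 and 0.47 (adjusted p = 0.0263 and 0.00946, and 0.134 and 0.0575 without C57 replicate 3), Rbm25 was the fourth, and Hnrnpc was at 10.3, 8.33 and 8.7 against 5.28, 6.14, 3.71 and 4.84 (log2 fold change -0.76 ± 0.15, adjusted p = 0.00734, at most 0.045 without any 1 library). Of 24 genes of the p53 pathway and senescence, Ccnd2, a cyclin of the G1 phase, rose by 0.60, and the cyclin kinase inhibitors Cdkn1b and Cdkn1c fell by 0.56 and 0.72 (adjusted p = 0.0164, 0.0207 and 0.0202). None of the 3 passed without C57 replicate 1 (adjusted p = 0.0793, 0.109 and 0.0828). In cholesterol and fatty acid synthesis 3 of 26 genes rose: Srebf1, the master factor of lipid synthesis, Sc5d, a sterol desaturase, and the cholesterol exporter Abca1, by 0.52, 0.51 and 0.77 (adjusted p = 0.0246, 0.0134 and 0.0386). None of the 3 was called without C57 replicate 1 or 3.

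Matrix genes gave few calls. Col1a1 was at 14.4, 7.99 and 15.5 in C57 and at 9.5, 8.37, 10.1 and 9.02 in aged Hap-I hearts, and Col3a1 at 71.9, 66.7 and 89.2 against 54, 51.1, 65.2 and 57.9 (log2 values -0.37 and -0.40, adjusted p = 0.608 and 0.592), so neither main fibrillar collagen passed. Of 32 fibrosis and collagen genes 0 rose and 1 fell (median -0.27, and 0.02 without the 3 most atrial libraries), the fibril-binding fibromodulin Fmod, at 3.48, 2.23 and 2.33 against 0.833, 0.515, 1.84 and 0.736 (log2 fold change -0.92 ± 0.25, adjusted p = 0.0305, and 0.133 without C57 replicate 1). Of 16 matrix proteases and inhibitors 2 fell, among them Timp4, described above. Smad3, a transducer of TGF-beta signals, was the only one of 27 TGF-beta genes called, higher by 0.39 (adjusted p = 0.0139, and 0.0736 without C57 replicate 3). Of 15 fibroblast markers 3 fell and 0 rose (median -0.41, and -0.24 with the atrial covariate): the matrix proteins Mfap5, at 19.8, 16.7 and 21.2 against 9.06, 9.29, 12.9 and 10 (log2 fold change -0.84 ± 0.13, adjusted p = 0.00286), and Fbln1 and Dpt, by 1.03 and 0.50 (adjusted p = 0.0226 and 0.0263). Without C57 replicate 1 or 3 or aged Hap-I replicate 4, or with the atrial covariate, 1 of the 3 was called. The fibroblast marker Pdgfra was at -0.01 and Tcf21 at -0.48, and neither passed (adjusted p = 0.981 and 0.0969).

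Vascular genes included Ramp2, the partner that makes the calcitonin receptor-like receptor an adrenomedullin receptor, at 59.8, 49 and 61.1 in C57 and at 28.1, 35.4, 29.4 and 29 in aged Hap-I hearts (log2 fold change -0.87 ± 0.10, adjusted p = 0.000651, at most 0.00572 without any 1 library). It was chosen after its values were seen and shares 31.7% of its words. Hif1a, the oxygen-regulated transcription factor, was at 6.56, 9.07 and 5.76 against 12.1, 9.69, 11.9 and 12.5 (log2 fold change 0.64 ± 0.13, adjusted p = 0.00713), and its target Vegfa, the endothelial growth factor, rose by 0.59 (adjusted p = 0.0469, and 0.143 without C57 replicate 1), and these were the 2 of 29 angiogenic and Notch genes called. Of 18 endothelial markers 3 fell: Ly6c1 at 189, 215 and 266 against 115, 116, 94.4 and 105 (log2 fold change -1.04 ± 0.17, adjusted p = 0.00286, with 46.8% of its words shared), Fabp4 and Rgcc, by 0.75 and 0.78. The median of the endothelial list was -0.17, and 1 was called when any 1 library other than aged Hap-I replicate 2 was left out. Of 6 lymphatic markers Prox1, a transcription factor that cardiomyocytes express as well, was at 3.19, 3.52 and 2.5 against 6.81, 5.94, 7.83 and 8.06 (log2 fold change 1.00 ± 0.13, adjusted p = 0.000987) and Ccl21a at -0.70 (adjusted p = 0.0123, with 80.6% of its words shared).

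Markers of the other cell types that a heart sample can hold were counted in the same way. None of 16 ventricular markers (median -0.04, and 0.20 with quantile normalization, with Tnni3 closest to the threshold at -0.47, adjusted p = 0.0597) and none of 10 atrial markers was called. The atrial median was -1.47, and the summed atrial level ranged from 397 to 7371 in C57 and from 257 to 5665 in aged Hap-I hearts. Among 3 mesothelial and epicardial markers Krt19 fell (log2 fold change -1.05 ± 0.26, adjusted p = 0.0212, and 0.0993 without C57 replicate 1), at 4.1, 1.29 and 1.23 against 0.507, 0.285, 0.576 and 0.392, with its highest value in the C57 heart that also held the most Scgb1a1. Endocardial, pericyte and smooth muscle, Schwann cell, erythroid, brown adipocyte, skeletal muscle and lymphocyte markers had 0 called, with medians of -0.21, -0.09, -0.05, -0.26, -0.38, -0.04 and 0.18. Of these, the medians over 3 or more genes changed sign under at least 1 alternative setting. Their members of smallest p were Cytl1, Kcnj8, Mbp, Hba-a2, Cox7a1, Tnni2 and Ighm, at adjusted p of 0.183, 0.0749, 0.464, 0.626, 0.131, 0.717 and 0.643.

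The levels in the 2 western-diet groups are set beside these for the genes on which the account turns, without a test between comparisons, since they share the C57 libraries. Y-linked transcripts, present in the 7 hearts compared above, were near 0 in 5 of the western-diet hearts (aged replicates 1 to 3 and adult replicates 1 and 2), so these groups and the shared estimate of the spread include hearts of both kinds, and the part of this in the levels was not tested. Xirp2 was at 49.9 ± 11.5 (SD, n = 5) in aged and 24.1 ± 7.14 (SD, n = 4) in adult Hap-I hearts on the diet, against 13.6 ± 3.03 (SD, n = 3) in C57 and 40.4 ± 5.67 (SD, n = 4) in aged Hap-I hearts without it. Agtr1a was at 12.9 ± 1.93 and 12.6 ± 1.67, against 11.1 ± 2.31 and 16.9 ± 1.76. For Xirp2 the aged groups were the 2 highest, and for Agtr1a the aged group without the diet was. Tsc22d3 was at 41.9 ± 8.04 and 38.5 ± 15.7 on the diet, against 70.2 ± 13 and 30.2 ± 3.24. Cebpb was at 5.51 ± 2.08 and 4.03 ± 1.31, against 7.39 ± 0.537 and 2.42 ± 0.289. Both genes had their lowest mean in aged Hap-I hearts without the diet. Arntl was at 2.17 ± 0.658 and 4.57 ± 1.14, against 0.42 ± 0.247 and 1.24 ± 0.37, and so was highest in adult Hap-I hearts on the diet. Pdk4 was at 112 ± 40.3 and 208 ± 36.5, against 72.7 ± 36.9 and 33.9 ± 4.98.

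A few genes, chosen after their values were seen, had levels in aged Hap-I hearts without the diet that lay outside the range of all the other hearts. Wdfy1, an endosomal adaptor of innate immune receptors, was at 0.811, 1.2, 0.743 and 1.37 in these hearts, at 3.21, 3.34 and 3.18 in C57, at 2.54, 4.57, 3.22, 4.45 and 4.3 in aged Hap-I hearts on the diet and at 3.74, 3.95, 4.05 and 4.15 in adult Hap-I hearts on the diet. The lowest of the other 12 hearts was thus above the highest of the 4 (aged Hap-I minus C57: log2 fold change -1.07 ± 0.15, adjusted p = 0.00109). The gene model Gm16867 was at 2.53, 2.08, 4.13 and 2.54 in these hearts and at 0.505 or less in the other 12 (log2 fold change 1.85 ± 0.14). It passed the filter only through the 4 hearts in which it is high, so its call is no support for a difference. Entpd4b, of the family of nucleotide-degrading enzymes, was at 17.6, 17.2, 21.2 and 18, against at most 11.6 in the others (log2 fold change 0.74 ± 0.10, adjusted p = 0.000888). Because 98.9% and 100% of the words of Gm16867 and Entpd4b occur in other genes, reads could be split among copies and both are uncertain.

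**Figure D5:**
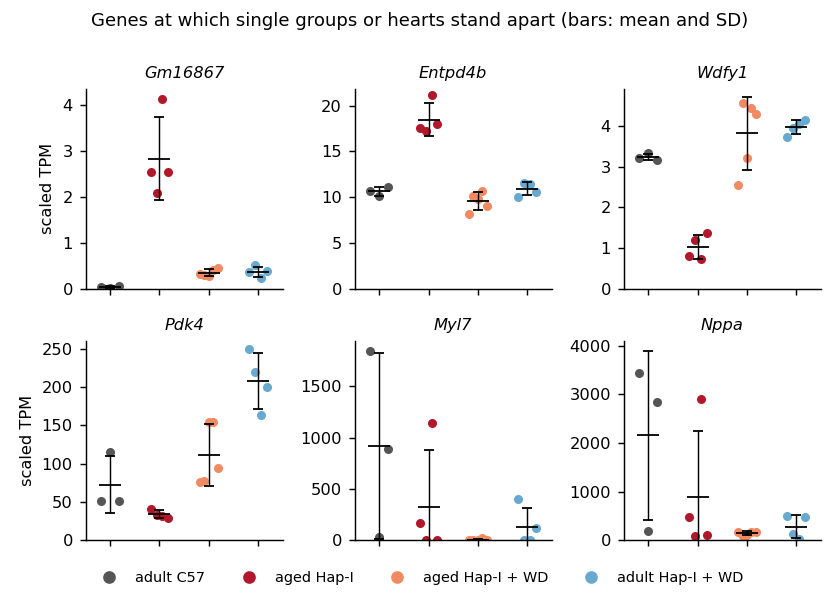
Scaled TPM of 6 genes in each of the 16 hearts, 1 point per heart, with bars for the mean and SD of each group, the lower end of a bar not drawn below 0; orange and light blue mark aged and adult Hap-I hearts on the western diet (WD). Aged Hap-I hearts without western diet (dark red) stand apart from the other 3 groups for Gm16867, Entpd4b and Wdfy1, while Myl7 and Nppa are high in single hearts of several groups.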

How the data were processed

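RNA of 16 mouse hearts was extracted with a column kit, and libraries of polyadenylated RNA were made with a stranded TruSeq kit, per the labels' protocols. The authors deposited 1 table of TPM per gene for the whole series. kallisto, DESeq2 and the build GRCm38 are named in the submitters' processing notes, whose versions and roles are not given in the sources used here. TPM divide reads by transcript length and rescale each library, and the genes of the table summed to 942090 to 959772 TPM in the 16 libraries, so the depth is unknown and no counting interval can be given.

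Of 30153 genes, 29732 had a symbol in the annotation used and 421 had none. The 11415 genes that reached 1 TPM in 3 or more libraries were scaled by size factors from medians of ratios and set to log2(value + 1), a scale that understates the change of low genes. A single limma model (limma 3.58.1 in R 4.3.3, with a variance trend) was fitted over all 16 libraries and 4 groups, and the two-sided contrast of aged Hap-I minus adult C57 was adjusted by the Benjamini-Hochberg method over all genes tested. It was tested on simulated data first. Errors after ± are standard errors for fold changes and SD for levels. Replicate numbers follow accession order and pair nothing.

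The members and the 59 gene lists were chosen with earlier results of these data known, and a list of airway markers was added later. Named genes are the 12 called genes of largest change in each direction with no overlap between the groups, a symbol not of a gene model (Gm and digits, or Rik) or ending in -ps, and a mean of 5 scaled TPM or more where it is higher, up to 4 called members of each list by smallest p, the member of smallest p of a list with none, and always Col1a1, Col3a1, Myh7, Nppa, Nppb, Ace, Agt and Agtr1a. Further called members that complete a count, and genes said to be so, were chosen after their values were seen. A gene's shared words are the percentage of 31-base words of its transcripts that occur in other genes.

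Alternatives were other scalings, pseudocounts of 0.1 and 0.5, other filters, variance models, library weights, thresholds, a fit of the 2 groups alone, a lowess correction for transcript length (span 0.3), an atrial covariate (Myl7, Myl4, Sln and Mybphl), and leaving out each library. The length correction with the atrial covariate, and leaving out the 3 most atrial libraries, were chosen after seeing the data. Promoters are from RefSeq. Some genes that the naming rule takes are not reported here.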

Additional observations from a re-analysis of the deposited data

Results flagged for a closer look

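In 6 of 168 named genes, 1 aged Hap-I heart stood apart from the other 3, with a gap to the nearest heart that took a larger part of the group's range than Dixon's 95% critical value. Chance alone gives such a gap in about 1 in 20 groups. Nppa was at 2894 in replicate 3, against 94.0 to 477 in the others, and this was also the aged heart with the most Myl7. Entpd4 was at 56.1 in replicate 3, against 34.9 to 36.9. Klf2 was at 14.7 in replicate 2, against 10.3 to 10.65. Hdac9 was at 1.815 in replicate 2, against 2.31 to 2.36. The airway genes Scgb1a1 and Bpifa1 were at 0.108 in replicate 1 and at 0.0949 in replicate 4, and listed at 0 in the other 3 hearts. With 3 values at 0, any value above 0 in the remaining heart gives such a gap. The rate of 1 in 20 thus does not apply to these airway genes.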

How the results depend on the processing

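The 150 called genes named include some chosen after their values were seen. Of these 150, none changed direction under the 22 settings refitted, 132 stayed called with the length correction, 105 lost their call without scaling and 51 kept it whichever library was left out. The counts of genes called (called, higher, lower) were 225, 204 and 21 without scaling, 3609, 1950 and 1659 with library weights, 2428, 1282 and 1146 in a fit of the 2 groups alone, 730, 478 and 252 with the atrial covariate, and 666, 412 and 254 with the length correction and the atrial covariate together. Without the 3 most atrial libraries they were 3, 3 and 0, at an adjusted p under 0.01 they were 268, 210 and 58, and at 2-fold or more 109, 77 and 32. At a minimum of 5 TPM 298 genes were called lower. Quantile normalization (992), pseudocounts of 0.1 (1319) and 0.5 (1300), leaving out mitochondrial transcripts (1311), no filter (938), a minimum of 5 TPM (924), no variance trend (1279), robust variance (1269) and the length correction (1171) stayed within 1.5 times of the 1283 called. Leaving out 1 library gave 380 to 1183 called, 261 to 766 higher and 113 to 417 lower, with the lowest counts without C57 replicate 3 or 1. Some settings leave fewer samples or genes. The cause of these differences was not tested.

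Of the 19 uncalled genes named, 5 changed sign. Without the 3 most atrial libraries the log2 values were 0.11 for Hba-a2, 0.0154 for Tnni2, 0.0468 for Agt, 0.11 for Ace and 0.15 for Col1a1. Ace was at 0.0611 without scaling, at 0.0158 with the atrial covariate, and between -0.20 and 0.0273 (without C57 replicate 3) with 1 library left out. Tnni2 lay between -0.27 and 0.0924 (without C57 replicate 1) with 1 library left out, and Col1a1 was at 0.0024 with the length correction and atrial covariate. No paired analysis was possible because the replicate numbers were given in accession order and pair no animals. TPM keep no depth, so what depth limits was not assessed, and 3 C57 hearts limit every test.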

Other observations

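Some further genes had clear differences and belong to none of the lists above. They were chosen after their values were seen. S100a10 and Anxa2 encode the 2 partners of a membrane-bound complex that binds plasminogen and moves channels to the cell surface. S100a10 was at 60.4, 54.9 and 71.7 in C57 and at 24.6, 31.1, 30.2 and 29.6 in aged Hap-I hearts, and Anxa2 at 68.6, 55 and 75.3 against 35.1, 37.4, 38.6 and 37.9. Neither gene overlapped between the groups, as 34.1% of all genes tested did not (log2 fold changes -1.08 and -0.80, adjusted p = 0.00261 and 0.0026). Cds1, an enzyme that makes a precursor of phosphatidylinositol, was at 1.47, 2.35 and 1.32 against 5.15, 5.61, 5.88 and 7.04 (log2 fold change 1.36 ± 0.17, adjusted p = 0.000682). Arhgef19, a guanine nucleotide exchange factor, was at 7.71, 8.18 and 6.92 against 18.6, 14.8, 17 and 17.7, and Ice1, of a complex that transcribes small nuclear RNA genes, at 1.6, 2.13 and 1.7 against 4.92, 4.12, 5.62 and 5.55 (log2 fold changes 1.06 and 1.10, adjusted p = 0.000271 for both). Slc41a3, a magnesium transporter, was at 14.1, 13.1 and 10.5 against 32.3, 24.1, 25.6 and 31.4 (log2 fold change 1.11 ± 0.16, adjusted p = 0.00128).

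Cd209f, a lectin of the family found on macrophages, was at 0.476, 0.378 and 0 in C57 and at 1.94, 2.44, 3.34 and 2 in aged Hap-I hearts (log2 fold change 1.42 ± 0.20, adjusted p = 0.00128), with 36.3% of its words shared. The pseudogene Mpc1-ps was listed at 0 in all 3 C57 hearts and stood at 21.4, 42.2, 27.2 and 17.1 in aged Hap-I hearts. In aged Hap-I hearts on the diet it was at 41.6, 45.8, 28.9, 40.7 and 0 and in adult ones at 13.3, 0.0904, 0.0551 and 0.00134, so that it was near 0 or high in single hearts of both groups. The gene model Gm10052 had the same kind of values, at most 0.716 in C57 and 15.9, 15.4, 14.7 and 15.5 in aged Hap-I hearts. They share 89.7% and 100% of their words with other genes, so that reads could be assigned to either copy and their levels are uncertain.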
